A study of Rattus norvegicus with 18 samples.

Results

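The genes Ctsk, Acp5 and Car2, which osteoclasts use to resorb bone, were followed in the healing rat femur. All probe sets annotated to the 3 symbols were taken, whatever their signal, which gave 4 of the 8799 probe sets on the array: 1 for Ctsk, 1 for Acp5 and 2 for Car2. Ctsk was measured by rc_AA925246_at, Acp5 by M76110_s_at and Car2 by X58294_at and U60578cds_s_at. All 4 were among the 4669 probe sets bright enough to be tested. Affymetrix rat oligonucleotide arrays measured mRNA from the middle of the femur of intact female Sprague-Dawley rats that were young, adult, or older (6, 26, or 52 weeks old at fracture). A rod was placed in the marrow cavity, and tissue was taken 3 days or 1, 2, 4, or 6 weeks after a closed femoral fracture. Sham rats with no fracture, taken at 0 time, were the controls of each age. There were 18 arrays, 1 for each age and time, and each held RNA pooled from 2 rats. A time point thus has 3 arrays, 1 of each age, and no age was repeated within a time. The main tests between times take out the mean level of each age. Their p-values are read against how far the time courses of the ages differ.

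Osteoclasts are large cells formed by fusion of precursors of the monocyte line under the cytokines RANKL and M-CSF. They seal off a patch of bone, pump acid onto it to dissolve the mineral, and secrete proteases that digest the exposed collagen. In a fracture they remove calcified cartilage and woven bone of the callus and reshape the new bone. Ctsk encodes cathepsin K, the protease that cleaves collagen in the acid space. Acp5 encodes tartrate-resistant acid phosphatase, the classical stain for osteoclasts. Car2 encodes carbonic anhydrase II, which supplies the protons for the pump and is also abundant in red cells.

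Each femoral segment held marrow and cortical bone beside the callus, so that fewer cells of a type and less RNA per cell cannot be told apart. Arrays had median signals of 137.2 to 182.6 intensity units, and 37.2% to 43.3% of signals were under the floor of 100 set before log2. Gapdh probe sets at the 5' and 3' ends of the transcript, whose ratio drops when RNA is degraded, gave 0.257 on the young 6 weeks array, the lowest of all, and 0.650 to 0.913 elsewhere. The number of arrays limits the precision of every comparison.

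Ctsk expression was up-regulated at every time after fracture, with its highest signal at 2 weeks at each age. Without fracture the signals were 1829 in young, 311 in adult, and 564.5 in older rats. At 3 days they were 7925.5, 2339, and 1737.5 in the same order of ages, and at 1 week 13266, 8047, and 5692. At 2 weeks they reached 17747, 14669, and 15215. The 3 ages were far apart early, with the young rats highest, and came close together at 2 weeks, with a mean of 15877 ± 1643 (SD, n = 3 arrays). At 4 weeks the signals were 12849, 13664.5, and 12577, and at 6 weeks 8821, 13552, and 13487.5. All arrays from 1 week on lay above all 3 arrays without fracture, while at 3 days the older array lay below the young array without fracture. Of all 4669 probe sets tested, 51.2% had no overlap with the controls at 3 days, 32.0% at 1 week, 28.6% at 2 weeks, 18% at 4 weeks, and 14.7% at 6 weeks. The log2 fold change against no fracture was 2.22 ± 0.47 (SE) at 3 days (limma, Benjamini-Hochberg adjusted p = 0.00158), 3.63 ± 0.47 at 1 week (adjusted p = 0.000176), and 4.53 ± 0.47 at 2 weeks (adjusted p = 6.42e-05). It was 4.25 ± 0.47 at 4 weeks (adjusted p = 0.000309) and 4.10 ± 0.47 at 6 weeks (adjusted p = 0.000498), or 4.66 ± 0.46 without the young 6 weeks array.

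**Figure D1:**
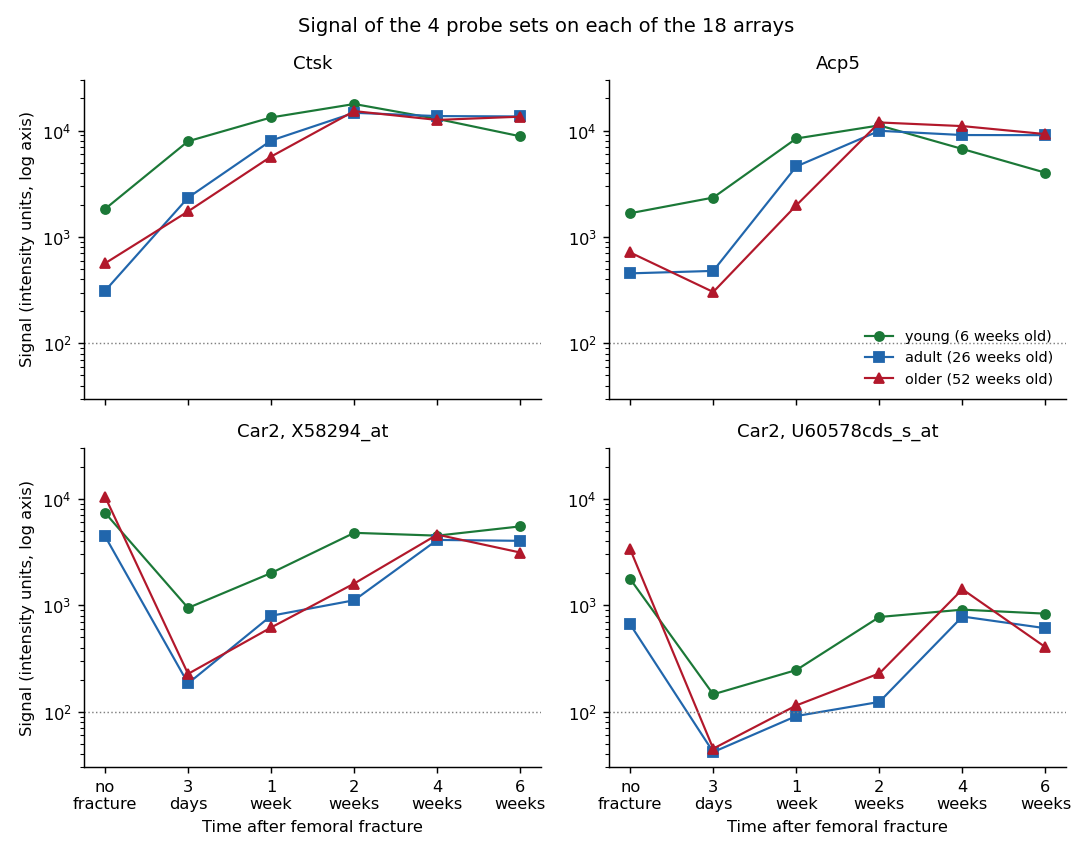
Signal of the 4 probe sets (intensity units, log axis) against time after femoral fracture, with 1 point per array and lines joining the arrays of 1 age. The dotted line is the floor of 100. Ctsk and Acp5 peak at 2 weeks at each age, and both Car2 probe sets are lowest at 3 days at each age.

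Acp5 expression was up-regulated from 1 week on, and not at 3 days. Its signals without fracture were 1670.2 in young, 455 in adult, and 714.5 in older rats. At 3 days they were 2343, 479.5, and 304, so that the young array was above and the older array below its own control. The log2 fold change at 3 days was -0.22 ± 0.61 (adjusted p = 0.786), with a 95% interval of -1.53 to 1.08. At 1 week the signals were 8413.5, 4594, and 1981, and at 2 weeks 11167, 9941, and 11902. As for Ctsk, the ages spread widely at 1 week and lay close together at 2 weeks (mean 11003 ± 991, SD, n = 3 arrays), and from 1 week on every array lay above all 3 controls. The share of all probe sets tested without overlap went from 32.0% at 1 week to 14.7% at 6 weeks. At 4 weeks the signals were 6703, 9065, and 11000.4, and at 6 weeks 4010.1, 9045, and 9251, with the young rats lowest at both times. The log2 fold change was 2.38 ± 0.61 at 1 week (adjusted p = 0.00967), 3.75 ± 0.61 at 2 weeks (adjusted p = 0.000745), 3.42 ± 0.61 at 4 weeks (adjusted p = 0.00431), and 3.09 ± 0.61 at 6 weeks (adjusted p = 0.0132). Without the young 6 weeks array the 6 weeks value was 3.83 ± 0.60. The call at 1 week was lost without the adult control (log2 1.97, adjusted p = 0.0552), and the call at 6 weeks was lost without the adult control (2.68, adjusted p = 0.0530), the adult 6 weeks array (2.76, adjusted p = 0.0592), or the older 6 weeks array (2.68, adjusted p = 0.0986).

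Ctsk therefore passed the test at the first time after fracture and Acp5 at the second. On the log2 scale the change of Ctsk from no fracture exceeded that of Acp5 at 3 days by 1.63 in young, 2.83 in adult, and 2.86 in older rats, a mean of 2.44 ± 0.70 (SD, n = 3 ages). The difference had the same sign at all 3 ages, but an exact sign-flip permutation test gave p = 0.25, the smallest that 3 ages allow. The excess was 1.25 ± 0.68 at 1 week, 0.78 ± 0.30 at 2 weeks, 0.83 ± 0.30 at 4 weeks, and 1.01 ± 0.12 at 6 weeks. It was thus smaller after 3 days but did not close. From 3 days to 1 week Acp5 rose by a log2 of 2.60 ± 0.61 (adjusted p = 0.0374), and Ctsk had 1.41 ± 0.47 (adjusted p = 0.0962). The call for Acp5 was lost without the young or adult 1 week array or the adult or older 3 days array, where the adjusted p ran from 0.0877 to 0.223. Of the 4 probe sets 1 was called between 3 days and 1 week, against 3.17% of all probe sets tested. None of the 4 was called between 1 and 2 weeks (0% of all probe sets by limma, 159 at an unadjusted p below 0.05), between 2 and 4 weeks (0.557%), or between 4 and 6 weeks (0%, 200 at an unadjusted p below 0.05). A two-sample t test of 3 arrays against 3 called 0 probe sets in each of these 3 steps. The study's own t tests between times pooled more arrays per time. At an unadjusted p below 0.05 there were 2 of the 4 probe sets from 1 to 2 weeks, 2 from 2 to 4 weeks, and 0 from 4 to 6 weeks. In the order of mean log2 levels, Ctsk stood from no fracture through 3 days, 1 week, 6 weeks, and 4 weeks to 2 weeks. Its level at 4 weeks was not told apart from that at 2 weeks (log2 -0.28 ± 0.47), nor that at 6 weeks from 4 weeks (-0.15 ± 0.47). Acp5 had the same order apart from 3 days, which stood below no fracture, and had -0.33 ± 0.61 in both of these steps. Without the young 6 weeks array the step from 4 to 6 weeks turned to 0.41 ± 0.46 for Ctsk and 0.41 ± 0.60 for Acp5, which puts 6 weeks above 4 weeks, and neither was called. Against no fracture 3 of the 4 probe sets were called at 3 days, 1 up and 2 down (44.2% of all probe sets tested were called), 4 of 4 at 1 week (24.8% of all) and at 2 weeks (21.1% of all), 2 up and 2 down each, and 2 of 4 at 4 weeks (6.49% of all) and at 6 weeks (4.39% of all), both up.

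**Figure D2:**
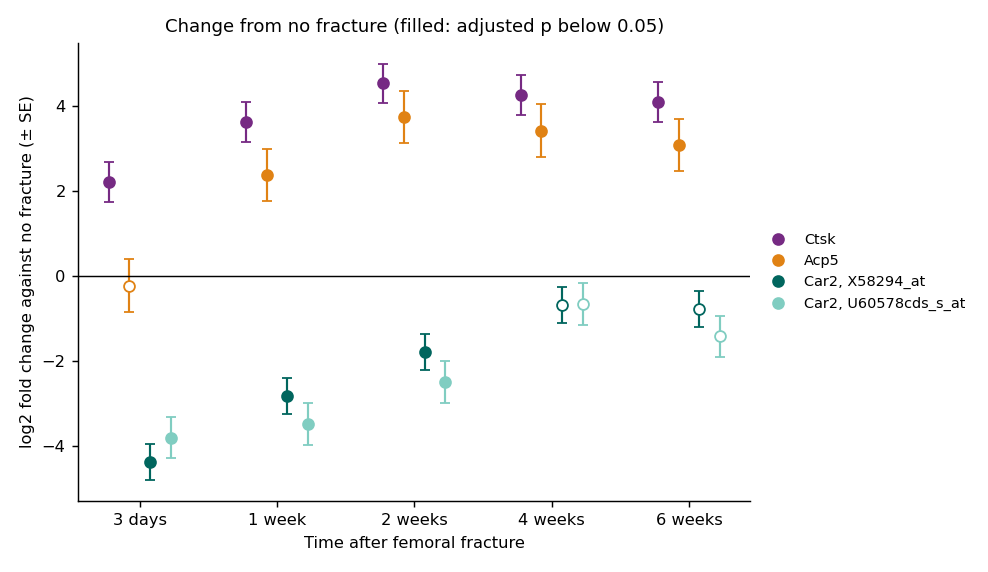
Log2 fold change ± SE of each probe set against no fracture (y axis) at 5 times after fracture (x axis), 3 arrays against 3. Filled points have an adjusted p below 0.05. Ctsk is up at all 5 times, from 2.22 to 4.53, Acp5 is near 0 at 3 days, and Car2 is down at 3 days, 1 week, and 2 weeks.

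The promoters of Ctsk and Acp5 are shown because both genes were up-regulated from 1 week on and are known targets of the osteoclast transcription factors NFATc1, MITF, and PU.1. The 250 bases before the start site come from RefSeq (build GRCr8), at chr2:185747298-185747547 on the plus strand for Ctsk and chr8:28943930-28944179 on the minus strand for the second of 2 Acp5 start sites. Capitals mark matches, on either strand, to the motifs searched.
Ctsk: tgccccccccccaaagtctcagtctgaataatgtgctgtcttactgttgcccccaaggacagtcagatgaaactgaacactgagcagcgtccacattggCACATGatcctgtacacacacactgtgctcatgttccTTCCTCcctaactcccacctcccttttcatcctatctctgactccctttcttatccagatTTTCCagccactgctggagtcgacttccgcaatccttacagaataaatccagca
Acp5: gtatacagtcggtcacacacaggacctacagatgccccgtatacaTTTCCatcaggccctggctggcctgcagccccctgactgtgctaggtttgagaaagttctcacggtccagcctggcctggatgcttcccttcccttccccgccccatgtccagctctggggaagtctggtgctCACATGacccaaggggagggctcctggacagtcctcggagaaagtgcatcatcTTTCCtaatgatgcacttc
The letters searched were TGANTCA for AP-1, GGAAA for the core of NFAT sites, CATGTG for the E-box of the kind MITF binds, CACGTG for its other form, GAGGAA for the core of PU.1 sites, and TATAAA for the TATA box, from 250 bases before to 50 bases after the start site. Reading 5' to 3', Ctsk held CATGTG at -151 to -146, GAGGAA at -114 to -109, and GGAAA at -54 to -50, all on the reverse strand. The second Acp5 start site had GGAAA at -205 to -201 and at -19 to -15 and CATGTG at -72 to -67, also on the reverse strand. The first Acp5 start site held none of the 6 motifs, which says only that these letters are not in that window. Such matches are common. Of 33469 rat promoters in the same table, 62.7% held GGAAA, 27.6% GAGGAA, 14.2% TATAAA, 14.0% CATGTG, 7.3% TGANTCA, and 6.4% CACGTG. The matches describe the sequence only.

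Car2 expression went the other way. It was down-regulated at 3 days, 1 week, and 2 weeks and was not called at 4 or 6 weeks. The brighter probe set, X58294_at, had signals without fracture of 7391 in young, 4461 in adult, and 10493 in older rats. At 3 days they were 943, 184, and 226, and at 1 week 2007, 796, and 618. All 6 of these arrays lay below all 3 controls, and the young array was the highest at both times. A lack of overlap was common then, at 51.2% of all probe sets tested at 3 days and 32.0% at 1 week. At 2 weeks the signals were 4788, 1113, and 1598.5, where the young array had returned to the range of the controls and the others had not. At 4 weeks the signals were 4505, 4106, and 4604, and at 6 weeks 5505.5, 4027, and 3126. The log2 fold change against no fracture was -4.37 ± 0.43 at 3 days (adjusted p = 1.17e-05), -2.82 ± 0.43 at 1 week (adjusted p = 0.000302), and -1.78 ± 0.43 at 2 weeks (adjusted p = 0.00742). It was -0.67 ± 0.43 at 4 weeks (adjusted p = 0.421) and -0.77 ± 0.43 at 6 weeks (adjusted p = 0.336), with 95% intervals of -1.58 to 0.23 and -1.68 to 0.13. The 6 weeks value was -0.60 ± 0.50 without the young array of that time.

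The dimmer Car2 probe set, U60578cds_s_at, had the same order of times by mean log2 level, from 3 days as the lowest to no fracture as the highest. From 4 to 6 weeks it had a log2 of -0.77 ± 0.49, beside -0.10 ± 0.43 for X58294_at, and neither was called. Its signals without fracture were 1765 in young, 661 in adult, and 3355 in older rats. At 3 days they were 145.5, 41.7, and 44.9, and at 1 week 246, 90.9, and 114. The adult and older arrays at 3 days and the adult array at 1 week were below the floor of 100, so that folds at these times are lower limits set by that floor. Car2 fell at least 13.9-fold by this probe set at 3 days (log2 -3.80 ± 0.49, adjusted p = 3.98e-05) and at least 11.2-fold at 1 week (log2 -3.48 ± 0.49, adjusted p = 0.000195). The young array lay within the range of the controls at 2 weeks, where the signals were 775, 123, and 229 (log2 -2.49 ± 0.49, adjusted p = 0.00202). At 4 weeks they were 908, 783, and 1411, and at 6 weeks 833, 608, and 403, where the log2 differences of -0.66 ± 0.49 and -1.42 ± 0.49 did not pass (adjusted p = 0.506 and 0.113). Leaving out the young 6 weeks array gave -1.41 ± 0.57 at 6 weeks. Over the 18 arrays the 2 probe sets correlated with r = 0.922 (Spearman rho = 0.965). They share a gene and the same RNA and are not independent measurements.

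Genes of red cells moved with Car2. All 9 tested erythroid genes fell at 3 days, 1 week, and 2 weeks, with median log2 fold changes of -3.11, -3.11, and -2.45, beside medians over all probe sets tested of 0.01, 0.01, and 0.00. At 4 weeks 1 of the 9 was lower and at 6 weeks 2. Of all probe sets tested 44.2%, 24.8%, 21.1%, 6.49%, and 4.39% were called from 3 days to 6 weeks in order. The summed erythroid signal was 82622 to 120810 on the arrays without fracture, 8632 to 19148.5 at 3 days, 6645 to 21372 at 1 week, and 11845 to 56974.5 at 2 weeks. At 4 weeks it was 60166 to 67723 and at 6 weeks 44364 to 108364. Hbb, a beta globin, had signals without fracture of 31687 in young, 40558.5 in adult, and 36569 in older rats, and of 25991, 6765, and 5995 at 2 weeks. There the young array was well above the other ages, as it was for Car2. Gata1, a transcription factor of red cell precursors, was among the genes that fell and gave the median at 3 days, 1 week, and 2 weeks. Its signals in young, adult, and older rats were 76.2, 47.3, and 60.1 at 3 days and 83.2, 89.3, and 78.4 at 1 week. At 2 weeks they were 394.8, 64.3, and 82.9. Signals below 100 were raised to that floor, so that the falls given by these medians are lower limits in size. Of the 9 tested, the lowest signal on any array was 27.8 (Rhag), also below the floor, and none was at 0. The part of red cells and their precursors in the change of Car2 was not tested.

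Against the erythroid score, the mean log2 signal of the 9 erythroid genes after each was centred over all arrays, the 18 arrays formed a group of 10 with scores from 0.13 to 2.48 and a group of 8 with scores from -2.0 to -1.09. The group of 8 held all arrays at 3 days and 1 week and the adult and older arrays at 2 weeks. Within the 10 arrays Car2 by X58294_at followed the score with r = 0.927 (rho = 0.733), and within the 8 arrays with r = 0.749 (rho = 0.738). For U60578cds_s_at these values were 0.868 (rho = 0.697) and 0.584 (rho = 0.610). Ctsk ran against the score within the 10 arrays (r = -0.71, rho = -0.83) and with it within the 8 (r = 0.660, rho = 0.524), and Acp5 likewise (r = -0.73, rho = -0.77, and r = 0.630, rho = 0.524). Over all 18 arrays Car2 by X58294_at and U60578cds_s_at followed the erythroid score with r = 0.916 and 0.964. It also followed scores made in the same way from neutrophil genes (0.726 and 0.782) and skeletal muscle genes (0.695 and 0.472). With the macrophage, osteoblast and bone matrix, and cartilage scores r was negative for Car2, from -0.51 to -0.33. Ctsk had positive r with these scores, at 0.505 (rho = 0.131), 0.861 (rho = 0.692), and 0.696 (rho = 0.631) in the same order. Acp5 had 0.319 (rho = 0.255), 0.623 (rho = 0.639), and 0.578 (rho = 0.672). With the neutrophil score r was -0.431 for Ctsk and -0.232 for Acp5, and with the skeletal muscle score 0.130 and 0.428. These correlations describe arrays that share times, ages, and a scaling step.

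**Figure D3:**
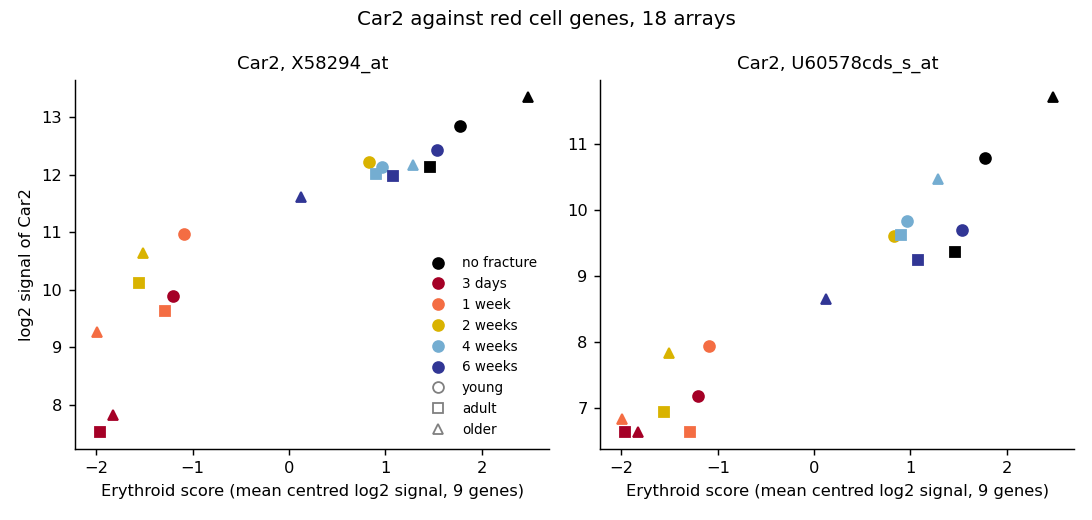
Log2 signal of each Car2 probe set (y axis) against the erythroid score (x axis, mean centred log2 signal of 9 genes) on the 18 arrays, with colour for time and shape for age. Arrays at 3 days and 1 week lie at the lower left with the adult and older 2 weeks arrays, and the controls and late arrays lie at the upper right.

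The comparison of ages asked whether levels after fracture, and the response to fracture, changed with age. Over the 15 arrays after fracture, none of the 4 probe sets was called between older and young rats (0.15% of all probe sets tested were called), older and adult rats (3.73%), or adult and young rats (0% by limma, 618 at an unadjusted p below 0.05). At an unadjusted p below 0.05 there were 2, 0, and 2 of the 4, in each case both Car2 probe sets. Ctsk was lower in older than in young rats by a log2 of -0.61 ± 0.30 (adjusted p = 0.264, 95% interval -1.25 to 0.03) and Acp5 by -0.60 ± 0.47 (adjusted p = 0.487, 95% interval -1.61 to 0.40). Car2 had -1.23 ± 0.29 by X58294_at (adjusted p = 0.0575) and -0.76 ± 0.32 by U60578cds_s_at (adjusted p = 0.188). Without the young 6 weeks array the values were -0.89 ± 0.28 for Ctsk, -1.02 ± 0.45 for Acp5, and -1.38 ± 0.31 and -0.80 ± 0.36 for Car2, none of them called. The response, which is the difference after fracture less that of the controls, had the other sign for Ctsk and Acp5, whose controls were also highest in young rats. It was larger in older than in young rats by a log2 of 1.09 ± 0.74 for Ctsk (adjusted p = 0.494, 95% interval -0.49 to 2.66) and 0.62 ± 1.15 for Acp5 (adjusted p = 0.828, 95% interval -1.85 to 3.09). For Car2 it was -1.73 ± 0.70 by X58294_at (adjusted p = 0.230) and -1.69 ± 0.77 by U60578cds_s_at (adjusted p = 0.293). These were 0.81 ± 0.64, 0.21 ± 1.03, -1.89 ± 0.70, and -1.73 ± 0.82 in the same order without the young 6 weeks array. The median Ctsk signal after fracture was 12849 in young, 13552 in adult, and 12577 in older rats, with ranges of 7925.5 to 17747, 2339 to 14669, and 1737.5 to 15215 (n = 5 arrays each), so that the ages overlapped widely.

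Ctsk and Acp5 peaked at 2 weeks at each age, and the ages lay apart before and after that time. As a percent of its own 2 weeks signal, Acp5 at 1 week was at 75.3% in young, 46.2% in adult, and 16.6% in older rats. Ctsk at 1 week was at 74.7%, 54.9%, and 37.4% in the same order. At 6 weeks Acp5 was at 35.9%, 91.0%, and 77.7% of its 2 weeks signal, and Ctsk at 49.7%, 92.4%, and 88.6%. Young rats were thus highest at 1 week and lowest at 6 weeks by this measure, for both genes. At 4 weeks, which does not rest on the array of low Gapdh ratio, Acp5 was at 60.0%, 91.2%, and 92.4% and Ctsk at 72.4%, 93.2%, and 82.7%, again lowest in young rats. Each percent comes from 1 array over 1 array, with no replicate.

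**Figure D4:**
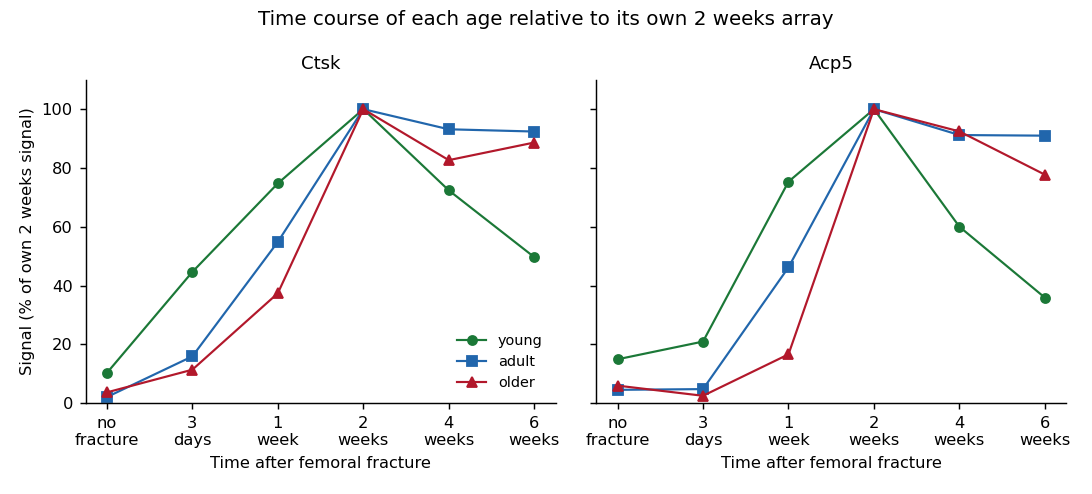
Signal of Ctsk and Acp5 as a percent of the 2 weeks signal of the same age (y axis) against time after fracture (x axis), 1 array per point. At 1 week the young rats lie highest and the older rats lowest, and at 6 weeks the young rats lie lowest.

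The tests by period did not call this shift. At 1 and 2 weeks together older rats had less Acp5 than young rats by a log2 of -1.0 ± 0.41 (adjusted p = 0.333) and less Ctsk by -0.72 ± 0.26 (adjusted p = 0.265). At 4 and 6 weeks together the differences were 0.96 ± 0.41 for Acp5 (adjusted p = 0.208) and 0.29 ± 0.26 for Ctsk (adjusted p = 0.554), or 0.65 ± 0.58 and -0.003 ± 0.33 without the young 6 weeks array. The change of the age difference from the early to the late period was 1.96 ± 0.58 for Acp5 (adjusted p = 0.375, 95% interval 0.66 to 3.25) and 1.01 ± 0.37 for Ctsk (adjusted p = 0.574, 95% interval 0.19 to 1.84). Without the young 6 weeks array these were 1.65 ± 0.73 and 0.72 ± 0.41. In the early period Car2 was lower in older rats by a log2 of -1.64 ± 0.28 by X58294_at (adjusted p = 0.0350), the 1 call of the 4 probe sets (0.514% of all probe sets tested were called). It was -1.43 ± 0.43 by U60578cds_s_at (adjusted p = 0.191). The median of the 9 erythroid genes in the same comparison was -1.92, with 1 called lower. The Car2 call was lost with each of 10 of the 12 arrays left out in turn, where the log2 value ran from -1.89 to -1.39. None of the 4 was called in the late period (2.81% of all), in the difference of the periods (0% by limma, 337 at an unadjusted p below 0.05), or in the older less young difference after fracture set against that of the controls (2.55% of all). At an unadjusted p below 0.05 there were 1, 3, and 2 of the 4 in these 3 comparisons.

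The array also held other genes of the resorption pathway. Of 22 genes of osteoclast formation and signalling 9 were on the array and 3 were bright enough to be tested, so that this step is hardly covered. Csf1r, the receptor of M-CSF, stayed between 19.8 and 188.5, and Calcr, the calcitonin receptor of osteoclasts, between 5.7 and 100.9 on all 18 arrays, and neither was tested. Of the 3 tested, Fos, a transcription factor subunit that osteoclast formation needs, rose at 3 days, 1 week, and 2 weeks (log2 1.48 ± 0.28, 1.46 ± 0.28, and 1.06 ± 0.28). The call at 2 weeks was lost without the older control or the older 2 weeks array. Csf1, which encodes M-CSF, and Tnfrsf11b, the decoy receptor osteoprotegerin, were not called at any time against no fracture.

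Acid secretion was covered by 9 tested genes of 25 listed. At 3 days 3 rose and 1 fell, at 1 week 1 and 1, at 2 weeks 4 and 1, at 4 weeks 3 and 0, and at 6 weeks 1 and 0. Of all probe sets tested 44.2%, 24.8%, 21.1%, 6.49%, and 4.39% were called at these times, so that the counts at 3 days and 1 week were near the background. Leaving out any 1 of the 6 arrays, the number that rose ran from 1 to 2 at 3 days, 0 to 1 at 1 week, 3 to 5 at 2 weeks, 0 to 2 at 4 weeks, and 0 to 4 at 6 weeks. With array medians set equal, 1 rose at 4 weeks. The median log2 fold change at 2 weeks was 0.88, beside 0.00 over all probe sets tested. Slc4a2, the anion exchanger that balances acid secretion in osteoclasts, had signals of 317, 266, and 265 without fracture and of 972, 869, and 871 at 2 weeks in young, adult, and older rats (log2 1.68 ± 0.30, adjusted p = 0.00127). The groups did not overlap, as for 28.6% of all probe sets tested at 2 weeks, and the ages were almost equal. Of the proton pump subunits Atp6v1a rose by a log2 of 1.46 ± 0.29 (adjusted p = 0.00220) and Atp6v1d by 1.04 ± 0.22 (adjusted p = 0.00326) at 2 weeks. The subunit that fell, Atp6v0a1, is one of several forms of the membrane part of the pump and is not the form that osteoclasts chiefly use (log2 -0.94 ± 0.24 at 2 weeks, adjusted p = 0.0112).

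Proteases, their inhibitors, and other osteoclast products gave 7 tested genes of 10 listed, of which 4 rose at 3 days, 4 at 1 week, 5 at 2 weeks, 3 at 4 weeks, and 2 at 6 weeks, and 0 fell. The shares of all probe sets called were 44.2%, 24.8%, 21.1%, 6.49%, and 4.39%, and the count at 3 days stood not far from its background. With each array left out in turn, 2 to 3, 2 to 4, 4 to 5, 0 to 4, and 0 to 3 rose at these times. The median log2 fold change at 2 weeks was 1.42. Mmp9, gelatinase B, had signals of 943, 421, and 2125.5 without fracture, of 1887.5, 130.3, and 145 at 3 days, and of 8208, 5205.5, and 8804 at 2 weeks. At 3 days it lay below its own control in adult and older rats and above it in young rats, as Acp5 did in young and older rats. At 2 weeks all 3 arrays lay above all controls, at a time when 28.6% of all probe sets tested had no overlap. Mmp9 rose there by a log2 of 2.93 ± 0.85 (adjusted p = 0.0219). Mmp14, a membrane protease, rose at 3 days by 2.33 ± 0.51 (adjusted p = 0.00199) and at 2 weeks by 2.66 ± 0.51 (adjusted p = 0.00188). Ckb, the brain form of creatine kinase, which is abundant in osteoclasts, rose at 2 weeks by 2.12 ± 0.41 (adjusted p = 0.00190). Cystatins, which inhibit cathepsins, rose as well at 2 weeks, with Cstb at 1.42 ± 0.22 (adjusted p = 0.000534) and Cst3 at 1.19 ± 0.29 (adjusted p = 0.00746). At 4 and 6 weeks Mmp9 was higher in older than in young rats by 1.92 ± 0.37 (adjusted p = 0.0336) and Mmp14 by 1.79 ± 0.21 (adjusted p = 0.00726), where 2.81% of all probe sets tested were called. Cartilage genes moved with them, with 4 of 5 higher in older rats and a median of 3.00, and 5 of 15 skeletal muscle genes and 1 of 6 neutrophil genes were lower. The summed cartilage signal was 2759 in young and 12149 in older rats at 4 weeks and 1239 and 8537 at 6 weeks. The part of cartilage in these differences was not tested. Without the young 6 weeks array they were 1.96 ± 0.53 for Mmp9 (adjusted p = 0.166) and 1.60 ± 0.25 for Mmp14 (adjusted p = 0.128). The Mmp9 call was lost without any 1 of the 6 arrays of these times, and the Mmp14 call without the young or the older 6 weeks array. Mmp9 at 2 weeks lost its call without any of 5 of the 6 arrays, where the log2 value stayed at 2.51 or more.

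**Figure D5:**
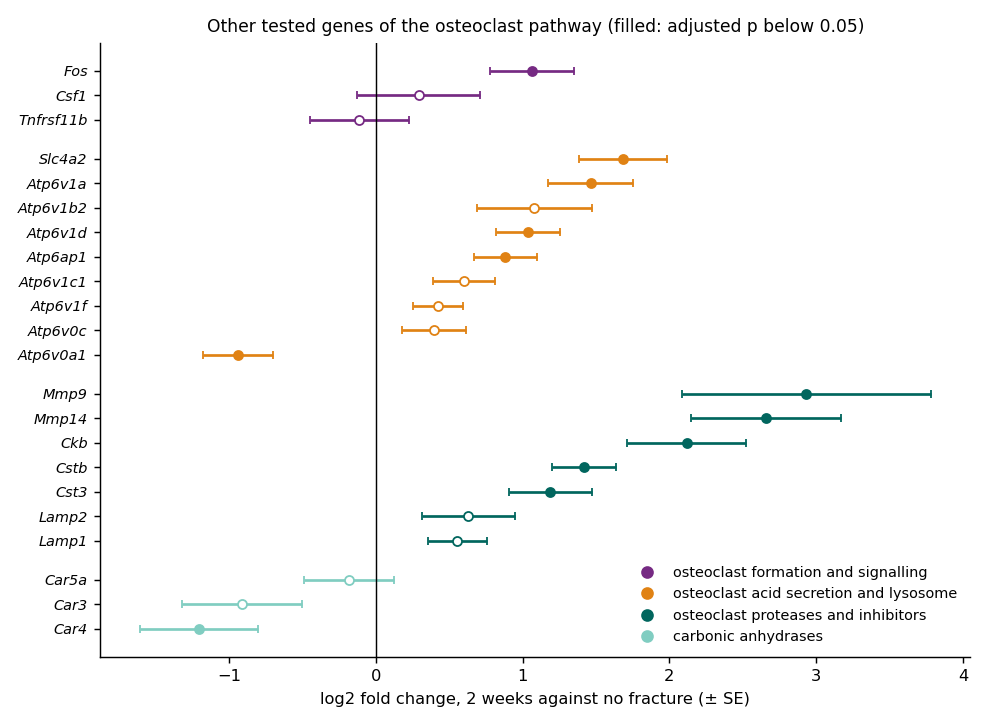
Log2 fold change ± SE at 2 weeks against no fracture (x axis) of the 22 tested genes of 4 lists of the resorption pathway (y axis), 3 arrays against 3. Filled points have an adjusted p below 0.05. The proteases and most pump subunits lie above 0, up to 2.93 for Mmp9, and the carbonic anhydrases lie below 0.

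Of the other carbonic anhydrases 3 of 15 listed were tested. Car3, the form of muscle and fat, fell at 3 days (log2 -3.04 ± 0.41, adjusted p = 5.39e-05) and at 1 week (-1.34 ± 0.41, adjusted p = 0.0240). Car4, a membrane-bound form, fell at 1 week (-1.17 ± 0.40, adjusted p = 0.0450) and 2 weeks (-1.20 ± 0.40, adjusted p = 0.0441). None of the 3 was called higher than without fracture at any time. From 3 days to 1 week 1 of the 3 was called up, against 3.17% of all probe sets tested. With each array left out in turn, 0 to 2 were called lower at 1 week and 0 to 1 at 2 weeks. Skeletal muscle genes were lower for 13 of 15 tested at 3 days and for 1 at 1 week. Of all probe sets tested 44.2% were called at 3 days, 24.8% at 1 week, and 21.1% at 2 weeks. The muscle count at 1 week was thus below the background.

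Macrophages share the monocyte origin of osteoclasts, and their genes were called about as often as all probe sets at 3 days. Of 10 tested, 3 rose and 1 fell at 3 days, 4 and 1 at 1 week, 3 and 1 at 2 weeks, and 1 and 0 at 4 and at 6 weeks, with medians between 0.37 and 0.59, beside 44.2%, 24.8%, 21.1%, 6.49%, and 4.39% of all probe sets called. Their summed signal was 14253 to 25726 without fracture and 22342 to 25049 at 2 weeks, when Ctsk was at its highest. Apoe, a secreted lipid carrier, was 2185 in young, 3825 in adult, and 3090.4 in older rats without fracture and 9467, 14329.5, and 10491 at 2 weeks (log2 1.93 ± 0.25, adjusted p = 0.000197). Lyz2, the lysozyme of macrophages and neutrophils, fell at 2 weeks (log2 -0.94 ± 0.25, adjusted p = 0.0139). Osteoblast and bone matrix genes were up for 6, 7, 7, 6, and 7 of 9 tested at the 5 times in order, and 1 was down at 3 days. Cartilage genes were up for 3, 5, 5, 3, and 0 of 5. Neutrophil genes were down for 6 of 6 at 3 days, 1 week, and 2 weeks, for 3 at 4 weeks, and for 0 at 6 weeks. The part of any of these cells in the signals of Ctsk, Acp5, and Car2 was not tested.

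Over the 18 arrays the pattern of Acp5 was most like that of Mt3, a metallothionein (r = 0.968), Ctsk (0.898), the cystatin Cst3 (0.893), Kiaa0040 (0.892), and Mmp9 (0.888), among 3876 probe sets with 1 symbol. The lowest was Ampd3, an AMP deaminase, at -0.81. Without the 3 arrays with no fracture Ctsk came first for Acp5, with r = 0.988. Ctsk was most like the collagenase Mmp13 (0.945), the carboxypeptidase Cpz (0.916), Ndrg4 (0.911), the lysosomal sulfatase Arsb (0.909), and Mt3 (0.907), and least like the kinase Mapkapk3 at -0.81. Car2 by U60578cds_s_at was most like the red cell genes Slc4a1 (0.960) and Rhag (0.957), the chromatin gene Smarcd2 (0.957), and the red cell genes Rhd (0.954) and Alas2 (0.954), and least like Plpp1 (-0.93). By X58294_at it was most like Lat, an adaptor of T cells (0.928), Rhd (0.926), Alas2 (0.924), the interferon-induced Rsad2 (0.920), and the beta globin Hbb-b1 (0.914), and least like the chemokine Ccl2 (-0.92). These are descriptions over arrays that share times, ages, and scaling.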

How the data were processed

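Femoral RNA from 18 pools of 2 rats was hybridized to 1 array each. The deposited values were intensities, which the authors had computed with Microarray Suite 5.0 and scaled to a mean of 500 per array. Detection calls and the other arrays of the study were not used here. Probe sets took their symbols from the platform annotation, brought up to date by gene identifier. Before log2, lower signals were raised to 100, which understates changes of dim genes. A probe set was tested (4669 were) if it was no control and reached 200 on 3 or more arrays.

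Models were fitted with limma 3.58.1 in R 4.3.3 (two-sided, eBayes trend). Times were set against each other in a fit to all 18 arrays that also held age, the replicate block. The fit for ages used the 15 fracture arrays and held time. Older and young rats were set against each other at 1 and 2 weeks and at 4 and 6 weeks in 1 fit to the 12 arrays of these times, and a further fit to all 18 arrays compared their difference with and without fracture. Benjamini-Hochberg adjustment ran over every tested probe set, and calls required an adjusted p under 0.05. All fits were tested on simulated data.

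The 3 genes and all gene lists were chosen with earlier results of these data known. The text names every probe set of the 3 genes, at most 4 called genes per list and comparison by size of change, at most 3 genes per list of other cells by mean signal, and for each member the 5 probe sets most correlated with it and the 1 least. Lists use the brightest probe set of a gene. Csf1r, Calcr, Csf1, Tnfrsf11b, Gata1, and Rhag were named after their values were seen.

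The alternatives tried were other floors (20, 200), other filters (none, 500), quantile or median scaling, robust moderation, and a single probe set per gene. Fits were also made without the age or the time term, to fewer or to more arrays, or with a linear age term. A two-sample t test with neither term and the leaving out of each array were tried as well. Likeness was repeated with Spearman correlation and without controls. RefSeq promoters (GRCr8) were found for Ctsk and Acp5. Plots used Python 3.11.15 with matplotlib 3.10.9.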

Additional observations from a re-analysis of the deposited data

How the results depend on the processing

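Over 1256 recomputed values of the 4 probe sets, none reversed a called direction. Of the values for a time against no fracture or for older against young after fracture, 419 kept their side of the threshold, 25 lost a call, and 2 gained one. The two-sample test, 3 arrays against 3 and so fewer than the study's own t tests pooled, ended the most calls. There Ctsk had log2 2.22, 3.63, 4.53, 4.25, and 4.10 from 3 days to 6 weeks (adjusted p = 0.191, 0.130, 0.111, 0.291, and 0.554), and Acp5 had 2.38, 3.75, 3.42, and 3.09 from 1 week on (0.219, 0.0973, 0.290, and 0.554). Car2 had -2.82 and -1.78 by X58294_at (0.128 and 0.296) and -3.48 and -2.49 by U60578cds_s_at (0.130 and 0.302) at 1 and 2 weeks. Both Car2 probe sets kept their calls at 3 days. With only the 6 arrays compared, 4 and 6 weeks were lost for Ctsk (4.25 and 4.10, adjusted p = 0.112 and 0.452) and Acp5 (3.42 and 3.09, 0.129 and 0.452), and 2 weeks for Car2 by X58294_at (-1.78, 0.0568). With no filter Acp5 was lost at 1 week (2.38, 0.0621) and 6 weeks (3.09, 0.0811). Without the replicate block, the age term, the Car2 value at 2 weeks by X58294_at was -1.78 with adjusted p = 0.0506. The block follows from the design, since each time holds each age once, and leaving it out ended 1 other call of the 4 probe sets, that of Acp5 from 3 days to 1 week (2.60, 0.0763).

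With each array left out in turn, Acp5 ran from 1.97 to 2.88 at 1 week and from 2.68 to 3.83 at 6 weeks. Car2 by X58294_at between older and young rats after fracture ran from -1.53 to -0.986 and gained a call without the young 4 weeks array (-1.53, adjusted p = 0.0480) or the older 3 days array (-1.15, 0.0356). Ctsk from 3 days to 1 week gained one without the young 3 days array (1.89, 0.0428). So did Car2 by X58294_at in the same step (2.01, 0.0225), where all arrays gave 1.55 (0.0577). Car2 by U60578cds_s_at from 2 to 4 weeks gained one without the young 2 weeks array (2.41, 0.0161), where all arrays gave 1.84 (0.13). The Car2 call between older and young rats at 1 and 2 weeks was also lost at a floor of 200 (0.104) and with no filter (0.261). Quantile normalization moved no median of all probe sets by over 0.1. Equal medians moved it from 0.04 to -0.08 at 4 weeks, from 0.08 to -0.06 between older and young rats at 4 and 6 weeks, and from 0.06 to -0.08 for the difference of the periods, with no call of the 4 probe sets changed.

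The number of probe sets called was 2062, 1160, 984, 303, and 205 at the 5 times, and the two-sample test called 848, 1, 18, 0, and 0. With the other alternatives it went down to 1263, 657, 404, 0, and 0, the lowest with only the 6 arrays compared, and with an array left out to 1514, 787, 587, 89, and 24. Other counts also moved by over 1.5 times. From 3 days to 1 week 148 were called, and 0 to 245 under the alternatives, and from 2 to 4 weeks 26 and 0 to 85. Between ages after fracture these were 7 and 0 to 457 for older against young, 174 and 0 to 643 for older against adult, and 0 and 0 to 23 for adult against young rats. For older against young they were 24 and 0 to 151 in the early period, 131 and 1 to 323 in the late one, 0 and 0 to 5 for the difference of the periods, and 119 and 82 to 281 for fracture against none. Of the 5 likest probe sets, Spearman correlation kept 2 in the first 5 for Acp5, 1 for Ctsk, 1 for Car2 by U60578cds_s_at, and 2 by X58294_at, and leaving out the controls kept 3, 1, 2, and 1. Signals near background limit Car2 by U60578cds_s_at at 3 days and 1 week.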
